A study of Mus musculus with 18 samples.

Results

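The 9 genes described here encode exchange factors of the Ras family: Rasgrp1, Rasgrp2, Rasgrp3, Rasgrp4, Sos1, Sos2, Rasgrf1, Rasgrf2 and Rasgef1b. They were taken by gene symbol from a count table of 55536 genes, so that the levels of the other 8 could be set beside those of Rasgrp1, the gene missing in the mutant organoids. The study made 18 RNA-seq libraries of mammary epithelial organoids of the mouse. There were 6 groups with 3 biological replicates each, and each of the 3 labelled batches holds 1 library of every group. All organoids came from C57BL/6 mice aged 6 to 7 weeks and were grown in matrigel for 5 days, in DMEM/F12 that held insulin, transferrin and selenium. RasGRP1-/- (KO) and wild-type (WT) organoids were each kept in EGF-WR medium (EGF at 2.5 nM, NGS-Wnt at 0.1 nM and Rspo2 at 8.3 nM), in EGF medium (EGF alone at 2.5 nM) or in WR medium (NGS-Wnt at 0.1 nM and Rspo2 at 8.3 nM). NGS-Wnt is a designed surrogate of Wnt ligands, and R-spondin 2 makes cells more responsive to Wnt. Which exons the RasGRP1 allele lacks is not given in the sources used here, nor is whether other cells of the mice lacked it or whether mice were pooled. Nothing states that the 3 cultures of a group came from separate animals, so p-values measure the spread between these cultures.

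Ras proteins are switches that are on when they carry GTP and off when they carry GDP. Exchange factors open the nucleotide pocket so that GTP can enter, and most of them share a catalytic unit named after yeast CDC25. SOS proteins are brought by the adaptor Grb2 to activated receptors such as the EGF receptor. Most RasGRP proteins bind diacylglycerol, the lipid that phospholipase C makes at the membrane, and several RasGRP proteins bind calcium. RasGRF proteins answer to calcium and calmodulin and are best known in neurons. RasGRP1 is best known in T lymphocytes and has also been studied in epithelial cells, where it has been set against SOS1 as a restraint on EGF receptor signals.

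Each library held between 24290097 and 31269899 counts, and 17092 genes, among them 8 of the 9 factors, were abundant enough to test. Rasgrp4 was not. All 8 markers of mammary epithelium passed the same filter, with a summed level of 5558 to 10530 CPM (the count scaled to a common library size) in KO libraries and 6459 to 11000 CPM in WT libraries. Markers of fibroblasts, endothelium and myeloid cells were measured in all libraries too, so the cultures were not pure epithelium. In bulk RNA of this kind, fewer cells of a type and less RNA per cell cannot be told apart. No pair of libraries was identical, and the lowest correlation between libraries of 1 group, across genes on a log scale, was 0.985.

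Sos2 and Sos1 led the 9 genes in level. On a scale of CPM per kb of the longest coding transcript, where genes can be set side by side, Sos2 averaged 13.1 ± 1.69 and Sos1 8.08 ± 1.42 (SD, n = 18 libraries). On this scale Sos2 was above Sos1 in 18 of 18 libraries, and their ranges did not overlap. Sos1 in turn was above Rasgrf1 in 16 of 18 libraries. Per kb of all annotated exons together, Sos2 averaged 8.64 ± 1.11 and Sos1 6.44 ± 1.13 (SD, n = 18). Sos2 was then above Sos1 in 16 of 18 libraries, and their ranges overlapped.

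A middle tier of 4 genes followed, whose neighbours did not separate beyond their spread. Rasgrf1 averaged 3.88 ± 1.35, Rasgef1b 3.06 ± 1.15, Rasgrp3 2.14 ± 0.807 and Rasgrp2 1.63 ± 0.935 CPM per kb (SD, n = 18). Rasgrf1 exceeded Rasgef1b in 9 of 18 libraries, Rasgef1b exceeded Rasgrp3 in 14, and Rasgrp3 exceeded Rasgrp2 in 13. Rasgrf2 stood lower, at 0.473 ± 0.372 CPM per kb. Rasgrp1 had 0.0613 ± 0.0573 and Rasgrp4 0.0200 ± 0.0221 CPM per kb, the lowest of the 9. Within the middle tier the order depends on the length used. Per kb of all annotated exons together, Rasgrp3 came next after Sos1 with 1.73, followed by Rasgrf1 with 1.67 and Rasgef1b with 0.740 CPM per kb. Rasgrp2 then had 0.302, close to the 0.297 of Rasgrf2, and exceeded it in 11 of 18 libraries, while Rasgef1b exceeded Rasgrp2 in 17.

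Of the summed level of the 9 genes per kb, both SOS genes together took 65.3% ± 5.59 in KO libraries and 65.5% ± 5.58 in WT libraries (SD, n = 9 each). By medium the share was 70.8% ± 3.20 in EGF-WR medium, 65.5% ± 3.78 in EGF medium and 59.9% ± 2.15 in WR medium (SD, n = 6 each). The ranges of EGF-WR medium (66.2% to 75.1%) and WR medium (57.7% to 63.9%) did not overlap. The 4 RasGRP genes summed to 2.38 ± 0.292 CPM per kb in EGF-WR medium, 3.63 ± 0.787 in EGF medium and 5.54 ± 1.06 in WR medium. Rasgrp3 supplied 60.5% ± 10.9 of that RasGRP sum in KO libraries and 52.6% ± 12.3 in WT libraries (SD, n = 9 each). Per kb of all annotated exons, that Rasgrp3 share was 85.4% ± 4.96 in KO libraries and 78.2% ± 6.71 in WT libraries. The share of both SOS genes, by that length, was 75.8% ± 5.03 in KO libraries and 75.9% ± 5.29 in WT libraries.

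**Figure D1:**
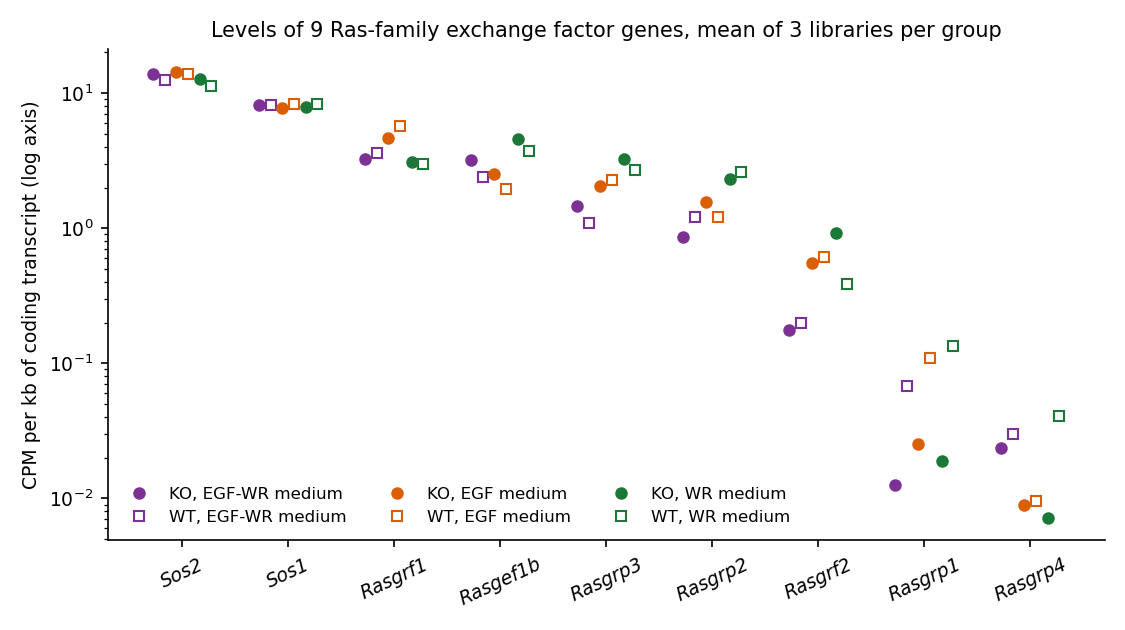
Level of each exchange factor gene (CPM per kb of the longest coding transcript, log axis), with genes ordered by their mean over 18 libraries. Each symbol is the mean of 3 libraries of 1 group, filled circles for KO and open squares for WT, with colours for the media. Sos2 and Sos1 lie at the top in all 6 groups, and Rasgrp1 and Rasgrp4 at the bottom.

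Rasgrp1 was close to the limit of detection even in WT organoids, where the 9 libraries together held 145 counts, and it was lower in KO organoids, where they held 25. The gene lies at chr2:117279993-117343001 on the minus strand (GRCm38). In EGF-WR medium, batches 1, 2 and 3 had 0, 0 and 6 counts in KO libraries and 7, 6 and 18 counts in WT libraries. In EGF medium they had 0, 6 and 4 counts in KO libraries and 15, 15 and 21 counts in WT libraries. In WR medium they had 0, 0 and 9 counts in KO libraries and 28, 10 and 25 counts in WT libraries. Within each medium every KO library lay below the WT library of its batch. In 5 KO libraries Rasgrp1 had no count, which allows a level of up to 0.105 to 0.124 CPM there, and no WT library was at 0.

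The mean level of Rasgrp1 was 0.0988 ± 0.125 CPM in KO libraries and 0.542 ± 0.254 CPM in WT libraries (SD, n = 9 each). KO was lower than WT in 9 of 9 pairs of the same medium and batch, by 0.443 CPM on average, with p = 0.00391 in an exact two-sided sign-flip permutation test. This is the smallest p that 9 pairs can give. It treats the pairs as independent, although pairs of different media share a batch and may share mice. Any 2 batches alone gave p = 0.0312 with the exact test, again the smallest possible with 6 pairs. In the fit across all genes the log2 fold change was -2.71 ± 0.72 (SE) and the adjusted p of edgeR's quasi-likelihood test was 0.173, which is not a call. With 1 batch left out the log2 fold change ranged from -4.94, without batch 3, to -1.96, without batch 1. DESeq2 did call it, with a log2 fold change of -2.96 and an adjusted p of 0.0131. The counts left in KO libraries cannot be placed on exons from a table of counts per gene. No difference of Rasgrp1 between media was called.

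Markers of T and NK lymphocytes, cells in which Rasgrp1 is abundant, were low. Of 10 such genes 3 passed the filter, Cd3d and Ncr1 were at 0 in all libraries, and the list summed to 2.02 to 5.26 CPM in KO libraries and 2.04 to 8.32 CPM in WT libraries. Rasgrp1 itself averaged less than these sums, at 0.0988 CPM in KO libraries and 0.542 CPM in WT libraries. Lck, a kinase of T cells, averaged 2.51 CPM over the 18 libraries, Trac, the constant region of a T cell receptor chain, 0.988 CPM and the coreceptor Cd4 0.666 CPM. The part of such cells in the Rasgrp1 counts was not tested. Of 6 B lymphocyte markers 1 passed the filter and Ms4a1 was at 0, with sums of 0.0658 to 0.801 CPM in KO libraries and 0 to 1.05 CPM in WT libraries.

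Rasgrp4, a factor best known from mast cells and other myeloid cells (chr7:29134851-29153961, plus strand), had 0 to 10 counts in a library. It averaged 0.0611 ± 0.0870 CPM in KO libraries and 0.123 ± 0.111 CPM in WT libraries (SD, n = 9 each), with 4 KO and 2 WT libraries at 0. A count of 0 allows up to 0.0987 to 0.129 CPM. KO was lower in 7 of 9 pairs, and the difference was not tested. The gene shares 978 exonic bases with Fam98c on the opposite strand, which had 14209 counts over the 18 libraries. The strand setting of the counting is not stated, so these few counts are uncertain. Apart from Kit, which mammary luminal progenitors also make, 1 of 7 mast cell markers passed the filter, Fcer1a and Ms4a2 were at 0, and the 7 summed to 0 to 0.986 CPM in KO libraries and 0 to 1.59 CPM in WT libraries.

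**Figure D2:**
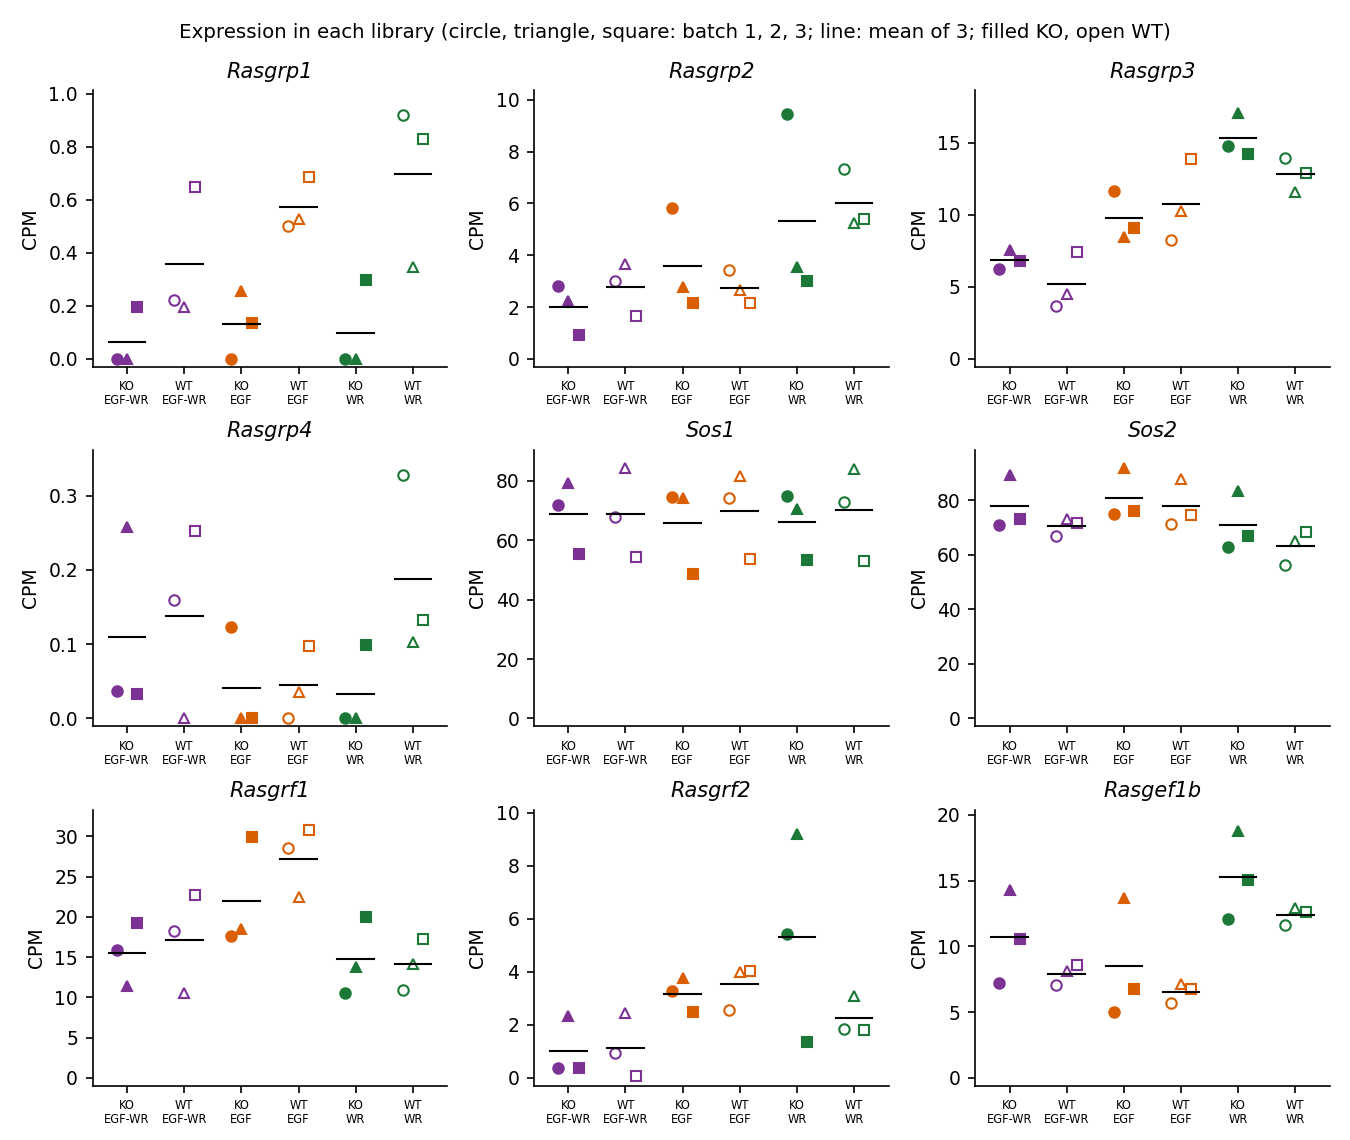
CPM of the 9 genes in each of the 18 libraries. Circles, triangles and squares are batches 1, 2 and 3, filled for KO and open for WT, and lines are group means of 3. Rasgrp3 is lowest in EGF-WR medium and highest in WR medium, and the squares of Sos1 lie below its other symbols.

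Whether another factor was higher where Rasgrp1 was missing is asked by the comparison of KO with WT over the 3 media. None of the 8 tested factors was called by edgeR's quasi-likelihood test, against a background of 58 of 17092 genes (0.339%). With so low a share, a lack of calls does not set 8 genes apart from all genes. The missing gene Rasgrp1 was itself among those not called. An unadjusted p under 0.05 in edgeR was reached by 3 of the 8, against 1842 of 17092 genes. Those 3 were Sos2, Rasgef1b and Rasgrp1, the missing gene itself. DESeq2, which made more calls over all genes as given below, called 1 of the 8, Rasgrp1.

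Sos2 averaged 76.6 ± 9.88 CPM in KO libraries and 70.6 ± 8.47 CPM in WT libraries (SD, n = 9 each), and was higher in KO in 8 of 9 pairs. Its log2 fold change was 0.12 ± 0.05 (SE), with an adjusted p of 0.361 in edgeR. Rasgef1b averaged 11.5 ± 4.50 CPM in KO libraries and 8.94 ± 2.72 CPM in WT libraries, higher in KO in 7 of 9 pairs, with a log2 fold change of 0.32 ± 0.12 and an adjusted p of 0.363. For both genes the KO and WT ranges overlapped. Both differences were widest in batch 2, and without batch 2 the log2 fold change of Rasgef1b was 0.07 and that of Sos2 was 0.05.

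Rasgrp3, on average the most abundant RasGRP gene, had 10.6 ± 3.91 CPM in KO libraries and 9.58 ± 3.86 CPM in WT libraries, with a log2 fold change of 0.19 ± 0.13 (SE) and an adjusted p of 0.624 in edgeR. Sos1 averaged 66.9 ± 11.3 CPM in KO libraries and 69.5 ± 13.1 CPM in WT libraries, a log2 fold change of -0.05 ± 0.05. The log2 fold changes of the other 3 were -0.19 ± 0.18 for Rasgrp2, -0.14 ± 0.11 for Rasgrf1 and 0.20 ± 0.36 for Rasgrf2. No member was called between KO and WT in EGF-WR medium (background 0.0819%), EGF medium (0.0702%) or WR medium (0.0819%) alone. These shares too are so low that a lack of calls does not set the members apart.

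More of these genes were called between media than between genotypes, as was so for all genes tested. Between EGF and WR medium, averaged over the genotypes, 5 of 8 factors were called, against 25.5% of all genes tested: Sos2 and Rasgrf1 were higher in EGF medium, and Rasgrp2, Rasgrp3 and Rasgef1b were lower (background 12.9% higher, 12.5% lower). Between EGF-WR and WR medium 4 of 8 were called, all lower in EGF-WR medium: Rasgrp2, Rasgrp3, Rasgrf2 and Rasgef1b (background 22.9% in either direction, 11.9% lower). Between EGF-WR and EGF medium 3 of 8 were called, all lower in EGF-WR medium: Rasgrp3, Rasgrf1 and Rasgrf2 (background 27.9% in either direction, 14.5% lower). For 8 genes, that count is near the share in either direction. These 3 comparisons share libraries, so their counts are not independent. In a fit without the batch as a replicate block, the counts were 2, 2 and 1 of 8.

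Within 1 genotype fewer libraries bear on each comparison. Between EGF and WR medium 1 factor was called in KO organoids, Rasgef1b (background 13.5%), and 4 in WT organoids, Rasgrp2, Sos2, Rasgrf1 and Rasgef1b (15.4%). Between EGF-WR and WR medium 3 were called in KO organoids, Rasgrp2, Rasgrp3 and Rasgrf2 (12.7%), and 2 in WT organoids, Rasgrp2 and Rasgrp3 (10.7%). Between EGF-WR and EGF medium 0 were called in KO organoids (11.6%) and 3 in WT organoids, Rasgrp3, Rasgrf1 and Rasgrf2 (15.6%). In that comparison of KO organoids 4 of 8 had an unadjusted p under 0.05 in edgeR, against 4345 of 17092 genes. The lists of calls differ between the genotypes, but no difference between the genotypes was called, as given with the interaction terms.

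**Figure D3:**
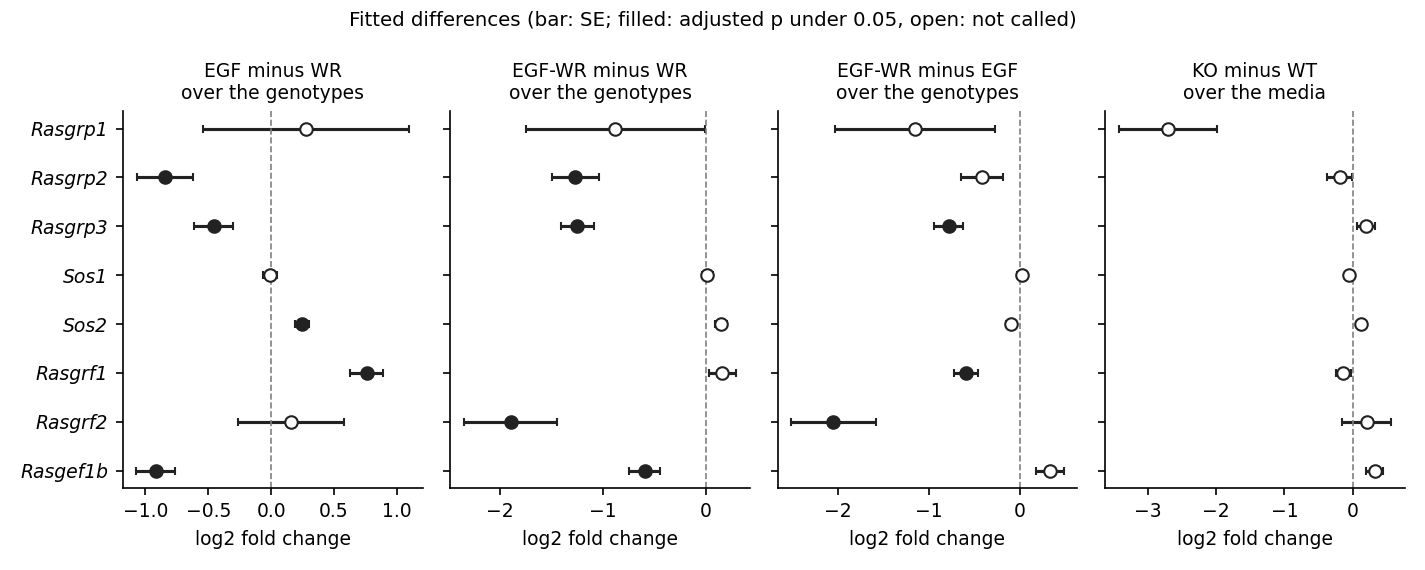
Log2 fold changes of the 8 tested factors in 4 comparisons (bars are SE), filled where the adjusted p is under 0.05. The x axes differ between panels. Filled points are seen in the 3 comparisons of media, Rasgrp3 in all 3 of them, and none in KO minus WT.

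Rasgrp3, a factor for Ras and Rap1 known from B lymphocytes and blood vessel endothelium, was called in all 3 comparisons of media. In EGF-WR medium Rasgrp3 had 6.22, 7.56 and 6.81 CPM in KO libraries and 3.70, 4.47 and 7.40 CPM in WT libraries. In EGF medium Rasgrp3 had 11.7, 8.46 and 9.11 CPM in KO libraries and 8.22, 10.2 and 13.9 CPM in WT libraries. In WR medium Rasgrp3 had 14.7, 17.1 and 14.2 CPM in KO libraries and 13.9, 11.6 and 12.9 CPM in WT libraries. All 6 EGF-WR libraries lay below all 6 EGF and all 6 WR libraries.

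The log2 fold change of Rasgrp3 was -1.25 ± 0.16 (SE) between EGF-WR and WR medium, with an adjusted p of 2.32e-05 in edgeR, and EGF-WR was lower in 6 of 6 pairs of genotype and batch. Between EGF-WR and EGF medium it was -0.79 ± 0.16, with an adjusted p of 0.00154 and EGF-WR again lower in 6 of 6 pairs. Both calls were kept in all 25 other settings tried. Between EGF and WR medium it was -0.46 ± 0.16, with an adjusted p of 0.0412 and EGF lower in 5 of 6 pairs. That call was kept in 12 of 25 other settings, and the adjusted p ranged up to 0.229. It was lost without the replicate block (adjusted p 0.123), without any 1 of the batches (0.0637 to 0.229), and without any 1 of 9 single libraries, namely KO batches 2 and 3 and WT batches 1 and 2 of EGF medium and KO batches 1 and 2 and WT batches 1, 2 and 3 of WR medium (0.0511 to 0.116). The difference between EGF-WR and WR medium was called in KO (-1.16 ± 0.23, adjusted p 0.00224) and in WT (-1.33 ± 0.23, adjusted p 0.00104).

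Markers of endothelium moved with Rasgrp3 in part. All 10 passed the filter, and their sum was 100.0 to 251.6 CPM in EGF-WR medium, 331.7 to 522.2 CPM in EGF medium and 301.0 to 704.3 CPM in WR medium. EGF-WR medium was lowest for both. That was not particular to endothelium. Mean fibroblast marker sums were 773.2, 1763 and 1345 CPM in EGF-WR, EGF and WR medium. Mean myeloid marker sums without Cd14 were 18.1, 55.5 and 43.3 CPM, while with Cd14 WR medium was lowest. The EGF mean without Cd14 includes the WT library of batch 3, at 158.7 CPM. As medians these sums were 18.17, 35.75 and 41.96 CPM. Over both genotypes the mean endothelial marker sums were 432.4 CPM in EGF medium and 436.1 CPM in WR medium. The genotypes differed in direction, with 382.0 and 488.8 CPM in KO libraries and 482.7 and 383.4 CPM in WT libraries. Rasgrp3 averaged 10.3 ± 2.17 CPM in EGF medium and 14.1 ± 1.85 CPM in WR medium (SD, n = 6 each). By genotype Rasgrp3 averaged 9.74 and 15.3 CPM in KO libraries and 10.8 and 12.8 CPM in WT libraries. The part of endothelial cells in the level of Rasgrp3 was not tested. Among 12722 genes with a symbol and at least 1 CPM, Cd93, a surface receptor of endothelial and myeloid cells, had the pattern most like Rasgrp3 (Pearson r = 0.97 over 18 libraries, log2 CPM with batch means taken out), followed by Atp1b2 (0.95) and Tns1 (0.95). Libraries of 1 medium share that medium, so such correlations are a description and carry no p.

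**Figure D4:**
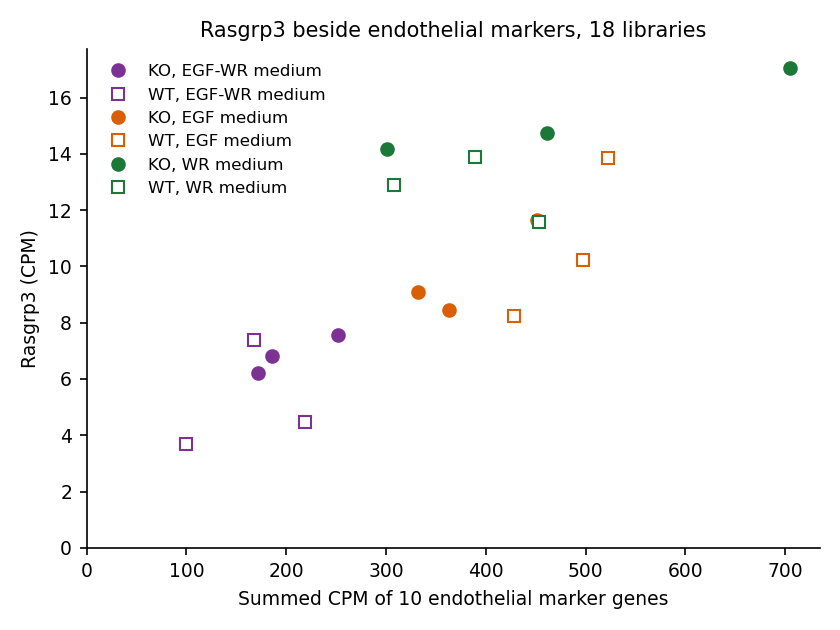
Rasgrp3 (CPM, y axis) against the summed CPM of 10 endothelial markers (x axis) in 18 libraries, filled circles for KO and open squares for WT, with colours for the media. The EGF-WR libraries lie at the lower left, and EGF and WR libraries overlap along the x axis while most WR libraries lie higher.

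The annotation gives Rasgrp3 a pair of start sites on the plus strand of chromosome 17, and the 250 bases before each are shown because Rasgrp3 was called in all 3 comparisons of media. For comparison, the second window of Rasgrp2, which also fell in EGF-WR against WR medium, and that of Sos1, for which no difference between media was called, follow. The sequences are RefSeq's on GRCm38.p6, 5′ to 3′ on the strand of the gene, and capitals mark a match to the ETS core CCGGAA on either strand.
Rasgrp3, first start, chr17:75435655-75435904, plus strand: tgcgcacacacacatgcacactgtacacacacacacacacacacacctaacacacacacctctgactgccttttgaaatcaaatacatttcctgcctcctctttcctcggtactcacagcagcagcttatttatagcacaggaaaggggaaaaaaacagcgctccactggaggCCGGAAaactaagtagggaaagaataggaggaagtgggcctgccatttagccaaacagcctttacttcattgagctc
Rasgrp3, second start, chr17:75465288-75465537, plus strand: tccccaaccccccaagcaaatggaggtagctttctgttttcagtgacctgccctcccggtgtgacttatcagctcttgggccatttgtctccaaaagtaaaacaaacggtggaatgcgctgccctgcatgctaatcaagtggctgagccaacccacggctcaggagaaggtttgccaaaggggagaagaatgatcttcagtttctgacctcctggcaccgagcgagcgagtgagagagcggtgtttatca
Rasgrp2, second start, chr19:6401455-6401704, plus strand: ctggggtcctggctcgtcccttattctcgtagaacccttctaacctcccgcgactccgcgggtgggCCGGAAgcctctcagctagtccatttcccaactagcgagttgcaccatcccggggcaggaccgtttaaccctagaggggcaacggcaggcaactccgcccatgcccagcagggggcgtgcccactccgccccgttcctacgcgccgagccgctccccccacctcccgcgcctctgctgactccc
Sos1, chr17:80480454-80480703, minus strand: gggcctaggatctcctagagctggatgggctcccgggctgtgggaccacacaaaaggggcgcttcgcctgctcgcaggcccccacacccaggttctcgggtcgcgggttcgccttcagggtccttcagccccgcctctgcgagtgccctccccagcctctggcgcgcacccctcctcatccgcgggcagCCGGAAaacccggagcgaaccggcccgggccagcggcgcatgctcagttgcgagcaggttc

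The first Rasgrp3 window, the second Rasgrp2 window and that of Sos1 each held 1 ETS match, and these were the only 3 among 10 windows of 8 members, against 3952 of 32851 promoter windows of the same length. The first Rasgrp2 window (chr19:6399625-6399874) held none, and the windows shown were chosen with the matches known. No window held the AP-1 motif TGANTCA (6.75% of all windows) or the TCF/LEF core CTTTGA (13.8%), each searched on both strands. An E-box, CANNTG, was in 7 of 10 windows (66.2% of all) and a GC box, GGGCGG, in 6 of 10 (32.7% of all). CpG dinucleotides were at 0.6 or more of their expected number in 8 of 10 windows, against 34.0% of all. The 2 windows below that value were those of Rasgrp3, at 0.298 and 0.459. A match is a description of letters and not a binding site.

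Rasgrp2 (chr19:6399340-6415216, plus strand), which acts mainly on Rap1 and is best known from platelets, was highest in WR medium. In EGF-WR medium Rasgrp2 had 2.80, 2.25 and 0.921 CPM in KO libraries and 3.00, 3.65 and 1.66 CPM in WT libraries. In EGF medium Rasgrp2 had 5.81, 2.79 and 2.17 CPM in KO libraries and 3.44, 2.67 and 2.16 CPM in WT libraries. In WR medium Rasgrp2 had 9.44, 3.54 and 3.01 CPM in KO libraries and 7.34, 5.25 and 5.41 CPM in WT libraries. The KO library of batch 1 stood above the other KO libraries in every medium, and the ranges of the media overlapped.

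Rasgrp2 was lower than in WR medium by a log2 fold change of -1.27 ± 0.23 (SE) in EGF-WR medium (adjusted p 5.10e-04 in edgeR) and of -0.84 ± 0.22 in EGF medium (adjusted p 0.00876), in 6 of 6 pairs in both comparisons. The first call was kept in all 25 other settings. The second was lost without the replicate block (adjusted p 0.152), without batch 1 (0.0773) and without batch 3 (0.0947). Platelet and megakaryocyte markers had mean sums of 6.02 CPM in EGF-WR medium, 4.51 CPM in EGF medium and 3.10 CPM in WR medium, most of it from Itga2b (5.71, 3.88 and 2.45 CPM). Without Itga2b the sums were 0.311, 0.635 and 0.652 CPM, and Ppbp and Gp6 were at 0 in all libraries. Their part in the Rasgrp2 levels was not tested. The genes most like Rasgrp2 in pattern were Aldh3a1 (r = 0.91), Arhgef10 (0.91) and Cmtm3 (0.89) over 18 libraries.

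Sos1 (chr17:80393752-80480453, minus strand) differed more between batches than between media or genotypes, and no difference between groups was called. In EGF-WR medium Sos1 had 71.9, 79.1 and 55.2 CPM in KO libraries and 67.7, 84.3 and 54.2 CPM in WT libraries. In EGF medium Sos1 had 74.5, 74.2 and 48.5 CPM in KO libraries and 74.2, 81.7 and 53.6 CPM in WT libraries. In WR medium Sos1 had 74.8, 70.5 and 53.2 CPM in KO libraries and 72.8, 84.1 and 53.1 CPM in WT libraries. All 6 libraries of batch 3 (48.5 to 55.2 CPM) lay below all 12 of batches 1 and 2. The log2 fold changes between media were -0.01, 0.02 and 0.03, each with an SE of 0.06, and none was called. The coefficient of variation of Sos1 was 17.5% over 18 libraries and between 3.70% and 7.09% within a batch. Lrr1 (r = 0.91), Ccnc (0.82) and Tsr3 (0.82) were most like it in pattern over 18 libraries once batch means were taken out.

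Sos2 (chr12:69583762-69681852, minus strand), the other factor that Grb2 brings to receptors, rose in EGF medium by a small step. In EGF-WR medium Sos2 had 70.9, 89.4 and 73.2 CPM in KO libraries and 66.8, 73.2 and 71.7 CPM in WT libraries. In EGF medium Sos2 had 74.9, 92.0 and 76.1 CPM in KO libraries and 71.2, 87.8 and 74.7 CPM in WT libraries. In WR medium Sos2 had 62.9, 83.5 and 66.7 CPM in KO libraries and 56.4, 64.9 and 68.4 CPM in WT libraries. In each of the 6 pairs of genotype and batch, EGF medium was highest, EGF-WR medium came next and WR medium was lowest, although the ranges overlapped between media.

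The log2 fold change of Sos2 between EGF and WR medium was 0.24 ± 0.06 (SE), an increase of 1.18-fold, with an adjusted p of 0.00291 in edgeR. Without the replicate block its adjusted p was 0.123, and without batch 1 it was 0.0645. Between EGF-WR and WR medium it was 0.15 ± 0.06, with an adjusted p of 0.0660, which passed when the WT library of batch 2 in EGF-WR medium (0.0402), the KO library of batch 2 in WR medium (0.0392) or the WT library of batch 3 in WR medium (0.0176) was left out. Between EGF-WR and EGF medium it was -0.10 ± 0.06, with an adjusted p of 0.211. The genes most like Sos2 in pattern were Arhgef5 (r = 0.94), Spry2 (0.93), a feedback inhibitor of receptor signals to Ras, and Cebpd (0.92), a transcription factor, over 18 libraries.

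Rasgrf1 (chr9:89909908-90026977, plus strand) was high in EGF medium alone. In EGF-WR medium Rasgrf1 had 15.9, 11.4 and 19.2 CPM in KO libraries and 18.3, 10.6 and 22.7 CPM in WT libraries. In EGF medium Rasgrf1 had 17.6, 18.5 and 29.9 CPM in KO libraries and 28.5, 22.4 and 30.7 CPM in WT libraries. In WR medium Rasgrf1 had 10.6, 13.8 and 20.1 CPM in KO libraries and 10.95, 14.2 and 17.3 CPM in WT libraries. EGF medium was highest in 6 of 6 pairs against either other medium, while the ranges overlapped across batches.

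The log2 fold change of Rasgrf1 was 0.76 ± 0.13 (SE) between EGF and WR medium, with an adjusted p of 3.36e-04 in edgeR, a call kept in all 25 other settings. It was -0.60 ± 0.13 between EGF-WR and EGF medium, with an adjusted p of 0.00276 that became 0.0995 without the replicate block and 0.0588 without batch 3. Between EGF-WR and WR medium it was 0.16 ± 0.14, which was not called, and 3 of 6 pairs were higher. Neuronal markers, of which 3 of 6 passed the filter, had mean sums of 104.1 CPM in EGF-WR medium, 94.1 CPM in EGF medium and 103.1 CPM in WR medium, most of it from Map2 (99.8, 89.1 and 91.7 CPM). Without Map2 the sums were 4.29, 5.09 and 11.4 CPM, with Rbfox3, Snap25 and Syt1 averaging under 0.1 CPM each, and the part of such cells was not tested. Adra1d (r = 0.91), Cers5 (0.90) and Man1a (0.89) were most like Rasgrf1 over 18 libraries.

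Rasgrf2 (chr13:91880400-92131656, minus strand) was the scarcest tested factor after Rasgrp1 and had the widest fold changes between media. In EGF-WR medium Rasgrf2 had 0.364, 2.32 and 0.362 CPM in KO libraries and 0.926, 2.43 and 0.0722 CPM in WT libraries. In EGF medium Rasgrf2 had 3.30, 3.78 and 2.47 CPM in KO libraries and 2.57, 3.999 and 4.03 CPM in WT libraries. In WR medium Rasgrf2 had 5.43, 9.19 and 1.35 CPM in KO libraries and 1.84, 3.11 and 1.83 CPM in WT libraries. All 6 EGF-WR libraries lay below all 6 EGF libraries, and the KO libraries in WR medium were spread most widely.

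The log2 fold change of Rasgrf2 was -2.05 ± 0.47 (SE) between EGF-WR and EGF medium, with an adjusted p of 0.00376 in edgeR, and -1.89 ± 0.45 between EGF-WR and WR medium, with an adjusted p of 0.00617. EGF-WR was lower in 6 of 6 pairs in both comparisons. Without the replicate block the adjusted p was 0.100 for the first and 0.101 for the second, and without batch 1 it was 0.0615 for the first and 0.125 for the second. Fibroblast markers, all 7 of which passed the filter, summed to 399.5 to 1155 CPM in EGF-WR medium, 746.8 to 2856 CPM in EGF medium and 656.6 to 2419 CPM in WR medium. They too were lowest on average in EGF-WR medium, as endothelial markers were. The part of fibroblasts in the level of Rasgrf2 was not tested. Most like Rasgrf2 in pattern were Ebf2 (r = 0.93), a transcription factor of mesenchymal and fat precursor cells, Lamb1 (0.92), a laminin chain, and Cpxm1 (0.92), over 18 libraries.

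Rasgef1b (chr5:99217426-99729065, minus strand), an exchange factor known to act on Rap2 and to be induced in stimulated macrophages, was highest in WR medium. In EGF-WR medium Rasgef1b had 7.24, 14.3 and 10.6 CPM in KO libraries and 7.09, 8.09 and 8.59 CPM in WT libraries. In EGF medium Rasgef1b had 4.98, 13.7 and 6.77 CPM in KO libraries and 5.68, 7.12 and 6.78 CPM in WT libraries. In WR medium Rasgef1b had 12.1, 18.7 and 15.1 CPM in KO libraries and 11.6, 12.9 and 12.6 CPM in WT libraries. The KO library of batch 2 was the highest of its medium in all 3 media, and in each of the 6 pairs of genotype and batch WR medium was highest and EGF medium lowest.

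Against WR medium the log2 fold change of Rasgef1b was -0.92 ± 0.15 (SE) in EGF medium, with an adjusted p of 1.77e-04 in edgeR and the call kept in all 25 other settings. In EGF-WR medium it was -0.59 ± 0.15, with an adjusted p of 0.00759 that became 0.122 without the replicate block, 0.0670 without batch 1 and 0.0830 without batch 3. Between EGF-WR and EGF medium it was 0.33 ± 0.15, with an adjusted p of 0.121, which became 0.0228 without batch 2 and 0.00867 without the KO library of batch 2 in EGF medium. Myeloid markers, all 10 of which passed the filter, had mean sums of 564.9 CPM in EGF-WR medium, 850.6 CPM in EGF medium and 320.6 CPM in WR medium. Cd14, which mammary luminal cells also make, supplied most of it (546.8, 795.2 and 277.3 CPM), and without Cd14 the mean sums were 18.1, 55.5 and 43.3 CPM. As medians they were 18.17, 35.75 and 41.96 CPM, and the WT library of batch 3 in EGF medium had 158.7 CPM. The part of myeloid cells in the Rasgef1b levels was not tested. The genes most like Rasgef1b were Ets2 (r = 0.96), an ETS transcription factor, Cxadr (0.95), a cell adhesion receptor, and Cltb (0.93), a clathrin light chain, over 18 libraries.

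Whether the medium acted differently in KO and WT organoids was tested with interaction terms. Of 24 such tests, 8 factors in 3 comparisons of media, edgeR called 0 and none had an unadjusted p under 0.05. Over all 17092 genes 0 were called as well (background 0%). Of these genes, 356 (EGF against WR), 286 (EGF-WR against WR) and 306 (EGF-WR against EGF) had an unadjusted p under 0.05 in edgeR. With shares that low, finding none in 24 tests does not set the factors apart from all genes. The lowest p among the factors was 0.0822, for Rasgrp2 between EGF-WR and EGF medium. Rasgrf2 fell in EGF-WR against WR medium by a log2 fold change of -2.49 ± 0.65 in KO (adjusted p 0.0182 in edgeR) and had -1.30 ± 0.64 in WT (adjusted p 0.249). The difference between these, -1.18 ± 0.90, had an adjusted p of 1 in edgeR.

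Around the exchange factors, no gene of 7 lists of the Ras pathway was called between KO and WT over the media (background 0.339%). At so low a share, a lack of calls does not set lists of this size apart from all genes. The lists were Ras GTPases, EGF receptor and adaptor genes, GTPase-activating proteins, genes of diacylglycerol supply and removal, RAF, MEK and ERK kinases, other exchange factors with a CDC25 unit, and feedback genes of ERK. Plce1 stands both in the diacylglycerol list and in that of other exchange factors. Their median log2 fold changes lay between -0.01 and 0.08, against 0.00 for all genes. Between media, calls were common in all genes, so the counts are read against the share called in either direction. It was 25.5% in EGF against WR medium, 22.9% in EGF-WR against WR medium and 27.9% in EGF-WR against EGF medium. For the comparisons of EGF-WR medium the share of higher calls alone is not given. Counts near these shares do not set a list apart from all genes.

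Feedback genes of ERK, which are switched on when ERK is active, were higher in both media with EGF. In EGF against WR medium 9 of 11 rose and 0 fell, with a median log2 fold change of 0.78 against -0.02 for all genes. The ETS factors Etv1 (3.67 ± 0.14), Etv5 (3.44 ± 0.18) and Etv4 (1.84 ± 0.16) and the phosphatase Dusp6 (1.78 ± 0.35) rose most. In EGF-WR against WR medium 6 of 11 rose and 0 fell, with a median of 0.51 against 0.00. In EGF-WR against EGF medium 0 rose and 2 fell, Spry4 (-0.76 ± 0.12) and Etv1 (-0.58 ± 0.12), with a median of -0.19 against 0.01.

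GTPase-activating proteins, which switch Ras off, had 6 of 9 higher and 1 lower in EGF than in WR medium, with a median log2 fold change of 0.33 against -0.02 for all genes. Nf1 (0.65 ± 0.09), neurofibromin, and Rasa1 (0.54 ± 0.05) led them. In EGF-WR against WR medium 3 rose and 2 fell (median 0.05 against 0.00), with Rasal1 at 0.61 ± 0.08 and Rasa4 at -0.84 ± 0.14. In EGF-WR against EGF medium 2 rose and 6 fell (median -0.28 against 0.01), with Rasa4 at -1.24 ± 0.14.

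Genes of diacylglycerol, the lipid that most RasGRP proteins bind, had 4 of 14 higher and 1 lower in EGF than in WR medium (median 0.10 against -0.02). Dgkz (1.05 ± 0.10) and Dgkd (0.59 ± 0.05), kinases that remove it, and Plcg2 (0.71 ± 0.06) and Plcg1 (0.21 ± 0.05), phospholipases that make it, rose together. In EGF-WR against WR medium 3 rose and 4 fell, among them Dgkh (-0.90 ± 0.19) and Plce1 (-0.77 ± 0.14), with a median of -0.05 against 0.00. In EGF-WR against EGF medium 1 rose and 6 fell (median -0.25 against 0.01), with Dgkz at -0.55 ± 0.10.

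Other exchange factors with a CDC25 unit had 2 of 17 higher and 5 lower in EGF than in WR medium (median -0.09 against -0.02). Rgl3 (1.64 ± 0.13), a factor for Ral, rose, while Ralgps2 (-1.18 ± 0.17) and the Rap factor Rapgef4 (-1.01 ± 0.30) fell. In EGF-WR against WR medium 2 rose and 6 fell, among them Rasgef1c (-2.22 ± 0.34), a relative of Rasgef1b, with a median of -0.19 against 0.00. In EGF-WR against EGF medium 2 rose and 4 fell (median -0.05 against 0.01), with Rasgef1c at -1.57 ± 0.34.

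The adaptor list had 1 of 10 higher and 3 lower in EGF than in WR medium (median -0.01 against -0.02), with the docking proteins Gab1 at -0.66 ± 0.11 and Gab2 at -0.36 ± 0.08. In EGF-WR against WR medium 0 rose and 3 fell (median -0.07 against 0.00), the EGF receptor gene Egfr among them (-0.28 ± 0.07). In EGF-WR against EGF medium 1 rose and 2 fell (median -0.05 against 0.01). Of 8 Ras GTPases, Rras (0.22 ± 0.07) was higher and Hras (-0.19 ± 0.06) lower in EGF than in WR medium (median 0.01 against -0.02). That count is near the 25.5% of all genes. Mras fell in EGF-WR medium against WR medium (-0.49 ± 0.12, median 0.04 against 0.00), the only call of 8, where 22.9% of all genes were called. Mras also fell against EGF medium (-0.68 ± 0.12, with 2 of 8 higher and 1 lower, median -0.04 against 0.01). Of 8 kinases, Map2k1 (0.61 ± 0.07), which encodes MEK1, and Mapk3 (0.23 ± 0.05), which encodes ERK1, were higher in EGF than in WR medium (median 0.02 against -0.02). This count too is near the 25.5% of all genes called in either direction. In EGF-WR against WR medium 2 rose and 1 fell, with Map2k1 at 0.47 ± 0.07 and Braf at -0.23 ± 0.07 (median 0.05 against 0.00). Between EGF-WR and EGF medium 0 of the 8 were called, with a median of -0.03 against 0.01.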

How the data were processed

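RNA from 18 cultures was measured by RNA-seq, as single-end reads of 50 bases from libraries made with 100 ng of RNA, per the labels' protocols. The authors deposited raw read counts per Ensembl gene, and the submitters' processing notes name STAR, DESeq2 and GRCm38 with no version. The annotation release is not given in the sources used here, nor is the strand setting. A second deposited table holds, per the file headers, the authors' normalized signal, which equalled the count divided by 1 size factor per library in all 999648 values checked, and stabilized values on a log2 scale by the authors, which were not used. The authors' deposited fold changes (log2 and as a ratio) and p-values, and the GC percent of each gene per the file headers, were not used either.

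TMM factors came from edgeR 4.0.16 under R 4.3.3. The filter was filterByExpr (count of at least 10, total of at least 15). All 18 libraries entered 1 robust quasi-likelihood fit with 1 mean per group and the labelled batch as a block, since the headers of the authors' table also name a batch term. Libraries of 1 batch deviated together from their group means, with r of 0.175 to 0.454 over 45 pairs of libraries. Calls are at a Benjamini-Hochberg adjusted p under 0.05 over 17092 genes, within each of 16 contrasts. SE is the log2 fold change divided by the square root of F. CPM uses the effective library size. CPM per kb uses the longest coding transcript of GENCODE M21 on GRCm38. Limits from a count of 0 use 3 counts and, like all counting limits here, cover counting error only, since reads without molecular identifiers are not independent molecules. Promoter windows are RefSeq's, and 8 of 9 members matched. The other settings were a fit without the block, RLE factors, DESeq2 1.42.0, no filter, each batch left out, each library left out, other scalings in the exact test and the length of all exons, which was chosen after seeing the data.

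Named were all 9 members, the 3 genes most correlated with each member above 1 CPM, and at most 4 called genes of each list with the largest change. Members, lists and tests were chosen with earlier results of these data known. Marker sums without their leading gene (Kit, Cd14, Itga2b or Map2) were added after the values were seen. A fit without the batch had been the main one in earlier work on these data.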

Additional observations from a re-analysis of the deposited data

Results flagged for a closer look

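For Rasgrp2 the difference between KO and WT organoids had opposite signs in 2 media. In EGF-WR medium the log2 difference of KO minus WT, on log2(CPM + 0.1) averaged over the 3 batches, was -0.52, and KO was lower in 3 of 3 batches. In EGF medium it was 0.27, and KO was higher in 3 of 3 batches, by as little as 0.003 in 1 of them. The test of the difference itself, an interaction term in edgeR, gave a log2 difference of -0.84 ± 0.46 (SE) and an adjusted p of 1 by the quasi-likelihood test, so it did not pass. The level is low, at 0.921 to 3.65 CPM in EGF-WR medium and 2.16 to 5.81 CPM in EGF medium.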

How the results depend on the processing

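Without the replicate block, 2 of 8 factors were called between EGF and WR medium (5 with it), 2 between EGF-WR and WR medium (4) and 1 between EGF-WR and EGF medium (3). Over all genes the same comparisons had 2022, 1730 and 1743 calls without the block and 4355, 3921 and 4771 with it, and KO against WT had 22 without it, 224 by DESeq2 and 58 as reported. The cause was not tested. DESeq2 called 1 factor between KO and WT, Rasgrp1, and as many as edgeR between media. Leaving out 1 batch gave 2 to 4 calls between EGF and WR medium, 2 to 4 between EGF-WR and WR medium and 2 to 4 between EGF-WR and EGF medium, and leaving out 1 library gave 4 to 5, 4 to 5 and 3 to 4. These counts were 2, 2 and 2 without batch 1 and 3, 3 and 2 without batch 3. RLE factors and no filter kept each of these counts of factors.

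Reversed signs were all of uncalled values. The log2 fold change of Rasgrf2 between EGF and WR medium was -0.047 without the block. With a batch or library left out, the uncalled values with a changed sign ranged from -0.265 to 0.419 (Rasgrf2, EGF minus WR), -0.059 to 0.437 (Rasgrf2, KO minus WT), -0.091 to 0.406 (Rasgrf1, EGF-WR minus WR), -0.817 to 2.23 (Rasgrp1, EGF minus WR) and -2.46 to 1.04 (Rasgrp1, EGF-WR minus WR). Those of Sos1 ranged from -0.106 to 0.001 (KO minus WT), -0.047 to 0.014 (EGF minus WR), -0.021 to 0.054 (EGF-WR minus WR) and -0.012 to 0.073 (EGF-WR minus EGF). The exact test of Rasgrp1 gave -0.39 to -0.53 CPM with a batch left out. Depth limits Rasgrp1 and Rasgrp4, which had at most 28 and 10 counts in a library.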
